A study of Mus musculus with 2 samples.

Results

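The 8 p53 target genes studied here, of 32286 genes in the count table, were followed through nuclei of regenerating mouse livers labelled Cox10-/- or wild-type: Cdkn1a, Mdm2, Ccng1, Trp53inp1, Plk3, Ei24, Bax and Phlda3. They were taken by symbol from the deposited table, and each symbol matched 1 row. The transcription factor p53 is stabilised by DNA damage, nucleotide shortage and other stresses, binds a pair of short half-sites in DNA and switches on genes that halt the cell cycle, repair DNA or kill the cell. In hepatocytes the pathway is known chiefly for restraining cell cycle entry and polyploid division during regrowth, with Cdkn1a (p21) as its best known arrest gene in liver. Some of its targets also answer to other stress factors, so the level of a target is not a direct measure of p53 activity.

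The study sequenced nuclear RNA from 2 livers, 1 labelled Cox10-/- and 1 labelled wild-type. Mice carrying a floxed Cox10 allele, a gene needed to make the heme A of respiratory complex IV, were injected once behind the eye with 5e10 genome copies of AAV8-Cre or AAV8-GFP. The labels give both viruses for both samples, and the promoter that drives Cre is not stated in them. After 4 weeks, 70% of the liver was removed, and the remnant was taken 4 days after surgery according to the treatment protocol, whereas the sample characteristics give 4 weeks. Animals ate standard chow, the livers were perfused and enzymatically digested, the suspension passed a 70 µm strainer, and 7000 nuclei per sample went into 10x 3' libraries. The labels state no age, sex or strain.

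Counts are unique molecular identifiers (UMIs, distinct captured RNA molecules). The Cox10-/- library had 14476400 UMIs in 5167 nuclei (median 2291 per nucleus), and 17703804 UMIs in 5448 nuclei (median 2853.5) made up the wild-type one. Nuclei with at most 10% of UMIs from mitochondrially encoded genes were kept, which left 60.7% of Cox10-/- and 28.3% of wild-type nuclei, and 7 cell barcodes occurred in both libraries. After doublet removal the marker-defined classes were hepatocyte-like (1161 Cox10-/- and 1493 wild-type nuclei), endothelial-like (829 and 0), stellate-like (617 and 8), myeloid-like (261 and 3), lymphoid-like (58 and 10) and cholangiocyte-like (22 and 2), with 180 and 26 nuclei left unnamed. Only the hepatocyte-like class could therefore be set between genotypes in kept nuclei. Levels are UMIs of a gene divided by all UMIs of the group and scaled to CPM (counts per 1e6). Cox10 itself stood at 43.6 CPM in Cox10-/- hepatocyte-like nuclei and at 35.8 CPM in their wild-type counterparts, 1.22-fold (1.002 to 1.48). The count covers the whole gene and the labels do not say which part the allele loses, so it does not check the genotype. Hepatocyte markers were also counted outside hepatocytes: the 13 of them summed to 27521 CPM in endothelial-like, 23507 CPM in myeloid-like and 23282 CPM in stellate-like nuclei of the Cox10-/- library, against 40853 CPM in its hepatocyte-like nuclei.

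With 1 library per genotype there was no replicate and no test. Intervals in parentheses are 95% intervals (exact Poisson for a CPM, Clopper-Pearson for a share, exact conditional for a ratio) that cover counting error only, and a difference between the genotypes cannot be told apart from one between 2 animals or 2 preparations. Where a group had 0 UMIs of a gene, the level said to be allowed is that of 3 UMIs in the group. A ratio is Cox10-/- over wild-type unless stated otherwise.

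Promoter sequence is shown first for the members whose upstream 250 bases hold a p53 half-site, the 10-base unit of a p53 response element. The windows come from RefSeq on GRCm38.p6 and were found for 7 members (8 windows, since Cdkn1a has 2 start sites). A half-site, whose consensus reads the same on both strands, occurred in the windows of 5 of these 7 members, namely Cdkn1a, Mdm2, Ccng1, Ei24 and Bax, and in 7.13% of the 32851 windows of all genes. Plk3 and Phlda3 held none in this window. The Cdkn1a window before the upstream start held 2 half-sites 12 bases apart. This arrangement (spacer of 0 to 13 bases) was found in 21 of all windows (0.0639%). The middle of the pair lay 2847 bases before the second Cdkn1a start. The distal p53 element of the mouse gene is known in this stretch, but the counted pair is not shown to be that element. In the window printed below, the half-site nearer the start is followed directly by tgacatgttc. Those letters miss the strict pattern only at the opening letter and were left unmarked. The 4 windows with half-sites that lay at most 25 bases inside annotated exons are printed 5′ to 3′ on the gene's own strand, with the half-sites in capitals. They are Cdkn1a (chr17:29090729-29090978, plus strand), Mdm2 (chr10:117710759-117711008, minus strand), Ccng1 (chr11:40755287-40755536, minus strand) and Bax (chr7:45466899-45467148, minus strand).
Cdkn1a: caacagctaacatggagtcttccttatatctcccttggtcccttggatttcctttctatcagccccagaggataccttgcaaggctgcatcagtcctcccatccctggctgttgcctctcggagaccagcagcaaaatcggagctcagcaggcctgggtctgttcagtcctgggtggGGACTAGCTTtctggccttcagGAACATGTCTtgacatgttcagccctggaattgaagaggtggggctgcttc
Mdm2: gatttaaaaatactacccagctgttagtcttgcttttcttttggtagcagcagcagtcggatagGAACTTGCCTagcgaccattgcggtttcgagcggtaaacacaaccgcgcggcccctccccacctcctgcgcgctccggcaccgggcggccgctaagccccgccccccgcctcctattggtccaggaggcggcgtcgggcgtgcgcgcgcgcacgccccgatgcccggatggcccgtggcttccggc
Ccng1: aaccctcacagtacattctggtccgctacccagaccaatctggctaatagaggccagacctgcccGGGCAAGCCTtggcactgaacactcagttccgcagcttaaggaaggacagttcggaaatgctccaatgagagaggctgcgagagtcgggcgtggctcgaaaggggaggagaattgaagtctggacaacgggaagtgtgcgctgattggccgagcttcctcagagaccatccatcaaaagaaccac
Bax: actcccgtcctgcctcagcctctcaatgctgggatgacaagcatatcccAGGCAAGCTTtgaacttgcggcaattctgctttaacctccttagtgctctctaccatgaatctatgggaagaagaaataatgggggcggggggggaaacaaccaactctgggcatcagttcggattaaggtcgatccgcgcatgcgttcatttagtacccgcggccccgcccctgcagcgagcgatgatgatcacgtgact
The half-site centres lay 68 and 46 bases before the Cdkn1a start, 181 before that of Mdm2, 180 before that of Ccng1, 196 before that of Bax and 5 before that of Ei24. A match describes these letters and is not evidence of binding.

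In all, 5 of the 8 members stood at least 1.5-fold higher in Cox10-/- hepatocyte-like nuclei and none at least 1.5-fold lower. They were the well-counted Trp53inp1, Plk3 and Ei24 and the sparse Cdkn1a and Bax, whereas the ratios of the feedback genes Mdm2 and Ccng1 had intervals that held 1. Among the 11405 genes that reached 20 UMIs in the 2 libraries combined, 18.7% were at least 1.5-fold higher and 14.4% at least 1.5-fold lower. Phlda3 did not reach that minimum and the other 7 members did; their median log2 ratio was 0.84, against -0.03 over all genes. Together the 8 members made up 855 CPM (827 to 884) in Cox10-/- and 396 CPM (381 to 411) in wild-type nuclei. A member with few UMIs passes the minimum mainly through the library where it is high, so the count and median describe the list only.

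**Figure D1:**
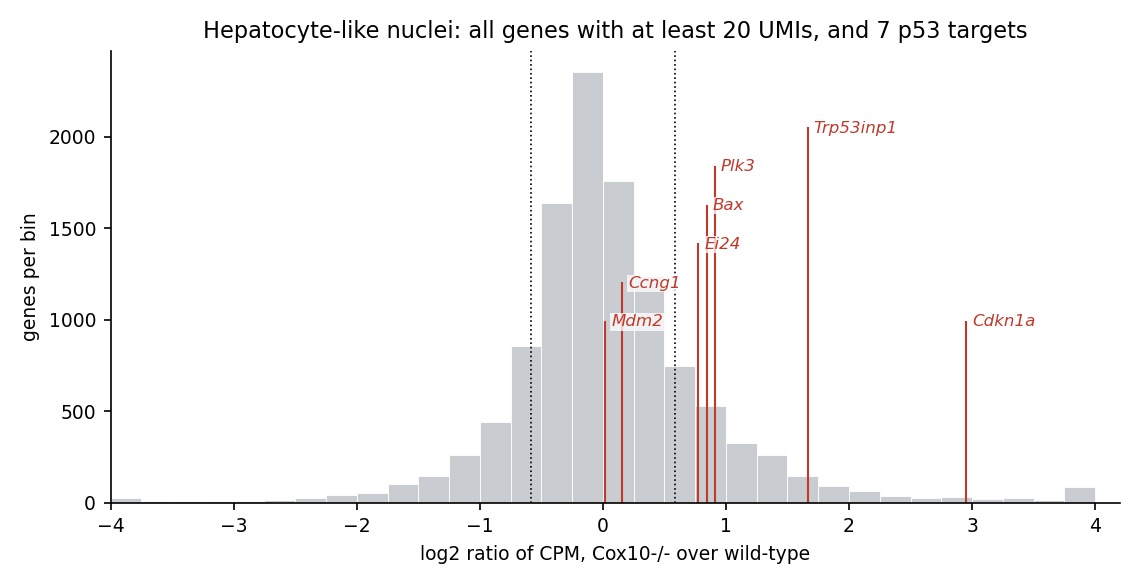
Histogram of log2 CPM ratios (Cox10-/- over wild-type, x axis) in hepatocyte-like nuclei for 11405 genes with at least 20 UMIs (y axis, genes per 0.25-wide bin, end bins holding all values beyond), with 7 members as red lines and dotted lines at 1.5-fold either way. Mdm2 and Ccng1 lie in the bulk of the genes, and Ei24, Bax, Plk3, Trp53inp1 and Cdkn1a lie right of the upper line.

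Of the arrest genes Cdkn1a had the largest ratio and Ccng1 the smallest. Cdkn1a, the cyclin-dependent kinase inhibitor p21 (ENSMUSG00000023067.14, chromosome 17, 29090976 to 29100727, plus strand of mm10), gave 25 UMIs or 6.06 CPM (3.92 to 8.94) in Cox10-/- and 5 UMIs or 0.707 CPM (0.229 to 1.65) in wild-type nuclei of the hepatocyte-like class, 8.57-fold (3.22 to 28.7). The intervals did not overlap, yet only 24 of 1161 Cox10-/- nuclei and 5 of 1493 wild-type nuclei held a UMI (2.07% and 0.335%). Within the Cox10-/- library Cdkn1a was not higher in the deep hepatocyte-like clusters than in other classes. It stood at 4.45 CPM (2.54 to 7.23) in those clusters and at 8.14 CPM (5.76 to 11.2) in the named non-hepatocyte nuclei, and the part of free RNA in this low signal was not tested. Plk3, a stress-responsive polo-like kinase (ENSMUSG00000028680.14, chromosome 4, 117128655 to 117133963, minus strand), was a frequent transcript. It had 790 UMIs or 191 CPM (178 to 205) in Cox10-/- and 721 UMIs or 102 CPM (94.6 to 109.6) in wild-type nuclei, 1.88-fold (1.70 to 2.08). Ccng1, cyclin G1, which works with a phosphatase on Mdm2 (ENSMUSG00000020326.7, chromosome 11, 40748552 to 40755311, minus strand), stood at 7.27 CPM (4.90 to 10.4) in Cox10-/- and 6.50 CPM (4.76 to 8.67) in wild-type nuclei, 1.12-fold (0.681 to 1.81).

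Mdm2, the ubiquitin ligase that marks p53 for degradation and is itself a p53 target (ENSMUSG00000020184.15, chromosome 10, 117688875 to 117710758, minus strand), did not separate the genotypes in hepatocyte-like nuclei. It gave 283 UMIs or 68.6 CPM (60.8 to 77.0) in Cox10-/- and 479 UMIs or 67.7 CPM (61.8 to 74.0) in wild-type nuclei, 1.01-fold (0.871 to 1.18), and this counting interval holds no 1.5-fold difference in either direction. Trp53 itself, at 15.5 CPM in Cox10-/- and 14.7 CPM in wild-type nuclei, had a ratio of 1.05 (0.760 to 1.45). The 13 genes listed as p53 regulators all passed the 20-UMI minimum and none reached 1.5-fold in either direction (median log2 ratio -0.03). Those furthest from 0 with an interval that left out 1 were Trp53bp1 (27.1 against 39.0 CPM, log2 ratio -0.52), Hipk2 (157 against 205 CPM, -0.39), Atr (53.3 against 44.1 CPM, 0.27) and Mdm4 (123 against 145 CPM, -0.24), each with Cox10-/- given before wild-type.

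Of the apoptosis and stress effectors Trp53inp1 had the largest ratio. Trp53inp1, a nuclear protein that boosts p53 activity and takes part in autophagy (ENSMUSG00000028211.11, chromosome 4, 11156431 to 11174379, plus strand), was the most abundant member. It had 1850 UMIs or 448 CPM (428 to 469) in Cox10-/- and 1001 UMIs or 141 CPM (133 to 151) in wild-type nuclei, 3.17-fold (2.93 to 3.42). Ei24, a membrane protein of the endoplasmic reticulum linked to cell death and autophagy (ENSMUSG00000062762.16, chromosome 9, 36779159 to 36797393, minus strand), gave 511 UMIs in each library, which is 124 CPM (113 to 135.0) in Cox10-/- and 72.2 CPM (66.1 to 78.8) in wild-type nuclei, 1.71-fold (1.51 to 1.94). Bax, which opens pores in the outer mitochondrial membrane (ENSMUSG00000003873.11, chromosome 7, 45461697 to 45466898, minus strand), gave 39 UMIs or 9.45 CPM (6.72 to 12.9) in Cox10-/- and 37 UMIs or 5.23 CPM (3.68 to 7.21) in wild-type nuclei, 1.81-fold (1.12 to 2.91), with overlapping intervals of the levels. Phlda3, a pleckstrin-homology protein that restrains Akt (ENSMUSG00000041801.5, chromosome 1, 135766119 to 135769136, plus strand), had 1 UMI in Cox10-/- and 0 in wild-type nuclei, which allows up to 0.424 CPM, so no fold is given. Bax shares its strand with the annotated gene Gm45808, and Cdkn1a, Plk3 and Ei24 overlap AC167363.2, Tctex1d4 and Gm26787 on the opposite strand, so their counts could hold reads of those genes.

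**Figure D2:**
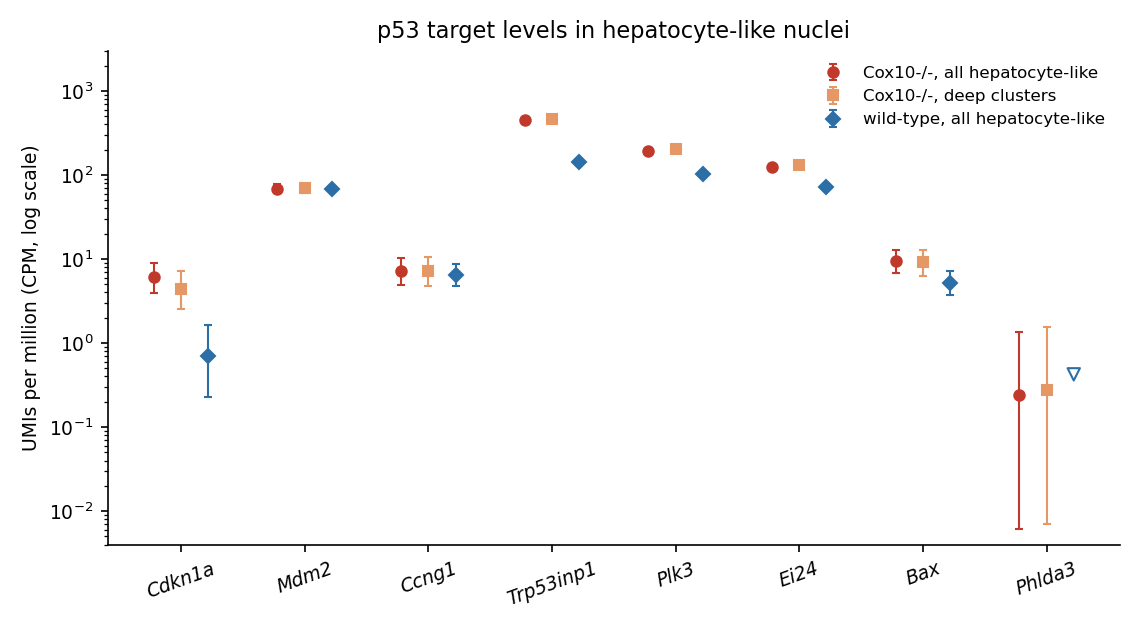
Level of each member in hepatocyte-like nuclei (y axis, CPM on a log scale; points are summed CPM and bars 95% Poisson intervals) for all Cox10-/- nuclei, the Cox10-/- nuclei of deep clusters, and wild-type nuclei; the open triangle is the level that 0 UMIs allow. Trp53inp1, Plk3 and Ei24 are separated from wild-type by more than their intervals in both Cox10-/- sets, and Mdm2 and Ccng1 overlap with it.

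A shallow cluster, of 445 Cox10-/- hepatocyte-like nuclei, reached a median of only 1122 UMIs, against 4297 in the other 716 Cox10-/- and 4414 in the wild-type hepatocyte-like nuclei. Without it the 3 abundant effectors were higher still, at 3.31-fold (3.06 to 3.59) for Trp53inp1, 2.02-fold (1.82 to 2.24) for Plk3 and 1.83-fold (1.61 to 2.08) for Ei24. Mdm2 kept a ratio of 1.02 and Ccng1 one of 1.11, whereas Cdkn1a stood at 6.30-fold (2.20 to 22.0) and Bax at 1.76-fold (1.06 to 2.88). Over all genes 15.2% were then at least 1.5-fold higher and 13.2% lower. The shallow nuclei differed in the members themselves: Cdkn1a stood at 16.9 CPM (7.73 to 32.1) in them and 4.45 CPM in the deep ones, and Plk3 at 95.8 CPM (71.3 to 126.0) and 206 CPM (191 to 221). Plk3 and Ei24 were thus higher than wild-type only in the deep nuclei. Wild-type nuclei had 102 CPM of Plk3 and 72.2 CPM of Ei24, and shallow ones 65.8 CPM (45.8 to 91.5) of Ei24. Trp53inp1 was higher in shallow nuclei too, at 308 CPM (263 to 359) against 141 CPM in wild-type ones.

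Different clusters held the class in the 2 genotypes. The deep Cox10-/- nuclei lay mostly in a cluster of 638 led by 4930404H11Rik, Cyp2b10 and Gm40438 and one of 66 led by Meg3, Rian and B830012L14Rik, and the wild-type nuclei in clusters of 713, 493 and 280 whose leading genes were Cyp17a1, Gm11844 and Gm13775 in that order. Trp53inp1 stood at 434 CPM (411 to 457) and 778 CPM (691 to 872) in the Cox10-/- pair, and at 112, 136 and 213 CPM in the wild-type clusters. Both Cox10-/- clusters thus exceeded the 3 wild-type ones for Trp53inp1. The same order held for Plk3, with 198 and 276 CPM against 86.6, 115 and 112 CPM. It also held for Ei24, with 137 and 84.9 CPM against 71.7, 75.4 and 64.9 CPM, although the Ei24 interval of the smaller Cox10-/- cluster (58.1 to 119.9) overlapped the wild-type ones. Mdm2 did not follow that order, with 68.7 and 79.6 CPM in the Cox10-/- clusters against 61.9, 71.2 and 74.5 CPM in the wild-type clusters.

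The share of nuclei holding a transcript was higher in Cox10-/- nuclei for Trp53inp1, Plk3 and Ei24 at equal depth, and on few nuclei for Cdkn1a, but not for Bax. With every nucleus thinned to 1000 UMIs (1117 of 1161 Cox10-/- and 1492 of 1493 wild-type nuclei, the rest being shallower), Trp53inp1 was detected in 30.1% (27.4 to 32.9) of Cox10-/- and 13.1% (11.4 to 14.9) of wild-type hepatocyte-like nuclei. Plk3 was detected in 14.1% (12.1 to 16.2) and 8.71% (7.33 to 10.3), and Ei24 in 10.0% (8.33 to 11.9) and 6.70% (5.49 to 8.09), in the same order of genotypes. Mdm2 was detected in 7.07% (5.64 to 8.74) of Cox10-/- and 6.84% (5.61 to 8.24) of wild-type nuclei. Without thinning the Mdm2 shares were 19.9% and 27.3%, an order that goes against its CPM and is not read. Cdkn1a was left with 12 Cox10-/- and 2 wild-type nuclei, a higher share in Cox10-/- nuclei that rests on few nuclei. Bax was left with 7 and 10, so the Bax share was not higher in Cox10-/- nuclei. Ccng1 was left with 8 Cox10-/- and 6 wild-type nuclei (0.716% and 0.402%), with overlapping intervals. No liver class is known to lack these broadly expressed genes, so no class gives their free-RNA share. In the named non-hepatocyte nuclei (median 2455 UMIs) the unthinned shares were 28.9% for Trp53inp1, 6.16% for Plk3 and 10.97% for Ei24, against 72.2%, 53.2% and 44.97% in the deep hepatocyte-like nuclei of the same library. The deep nuclei had a median of 4297 UMIs, so these shares are not at equal depth and the size of their gap is not read.

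**Figure D3:**
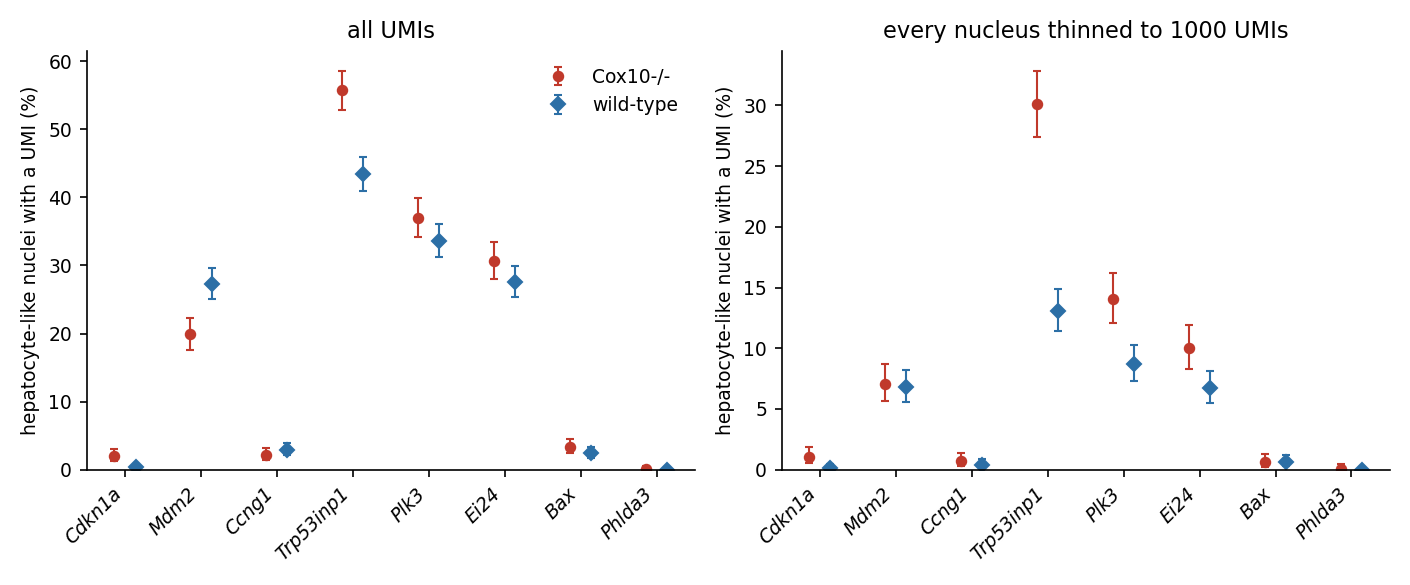
Share of hepatocyte-like nuclei with at least 1 UMI of each member (y axis, percent; bars are 95% Clopper-Pearson intervals) in Cox10-/- and wild-type libraries, with all UMIs (left) and after thinning each nucleus to 1000 UMIs (right). At equal depth Trp53inp1, Plk3 and Ei24 stay separated and Mdm2 overlaps.

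Across the classes of the Cox10-/- library the members fell into different patterns. Plk3 and Ei24 were higher in deep hepatocyte-like nuclei than in the 3 largest other classes. Plk3 stood at 206 CPM (191 to 221) in deep hepatocyte-like nuclei and at 15.7 CPM (10.3 to 22.8) in stellate-like, 24.3 CPM (17.9 to 32.2) in endothelial-like and 51.2 CPM (36.2 to 70.3) in myeloid-like nuclei. Ei24 stood at 132 CPM (121 to 145) against 43.1 to 46.5 CPM in those 3 classes. In the small classes Ei24 stood at 97.3 CPM (42.0 to 192) in cholangiocyte-like and 74.5 CPM (37.2 to 133) in lymphoid-like nuclei, both overlapping deep hepatocyte-like nuclei. Plk3 stood at 102 CPM (56.8 to 168) in lymphoid-like nuclei and, beyond the named classes, at 231 CPM (189 to 281) in the unnamed cluster of 90 nuclei described further on. Trp53inp1 had 469 CPM (447 to 492) in deep hepatocyte-like nuclei, 426 CPM (296 to 592) in cholangiocyte-like and 413 CPM (316 to 531) in lymphoid-like nuclei, which overlapped, and 118 to 165 CPM in endothelial-like, myeloid-like and stellate-like nuclei. Mdm2 was highest among the named classes in myeloid-like nuclei, at 106 CPM (84.3 to 133), which lay above the intervals of deep hepatocyte-like (69.3 CPM, 60.9 to 78.4), endothelial-like (46.5 CPM, 37.5 to 57.0) and stellate-like nuclei (34.9 CPM, 26.6 to 44.9). The Mdm2 intervals of lymphoid-like (67.7 CPM, 32.5 to 124.5) and cholangiocyte-like nuclei (24.3 CPM, 2.95 to 87.8) overlapped the myeloid-like one. Bax was at its highest among the larger classes in myeloid-like nuclei, at 22.9 CPM (13.3 to 36.7), against 9.18 CPM (6.32 to 12.9) in deep hepatocyte-like nuclei. That myeloid-like interval overlapped those of the largest endothelial-like cluster (695 nuclei, 12.2 CPM, 7.46 to 18.9) and stellate-like cluster (481 nuclei, 9.86 CPM, 5.25 to 16.9). Ccng1 was higher in endothelial-like (16.2 CPM, 11.1 to 22.8) than in stellate-like nuclei (4.65 CPM, 2.01 to 9.16). Cdkn1a lay between 6.77 and 12.2 CPM in the 5 named non-hepatocyte classes with overlapping intervals, and 7 of the 12 Phlda3 UMIs of all kept Cox10-/- nuclei came from stellate-like nuclei (4.07 CPM, 1.64 to 8.38).

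**Figure D4:**
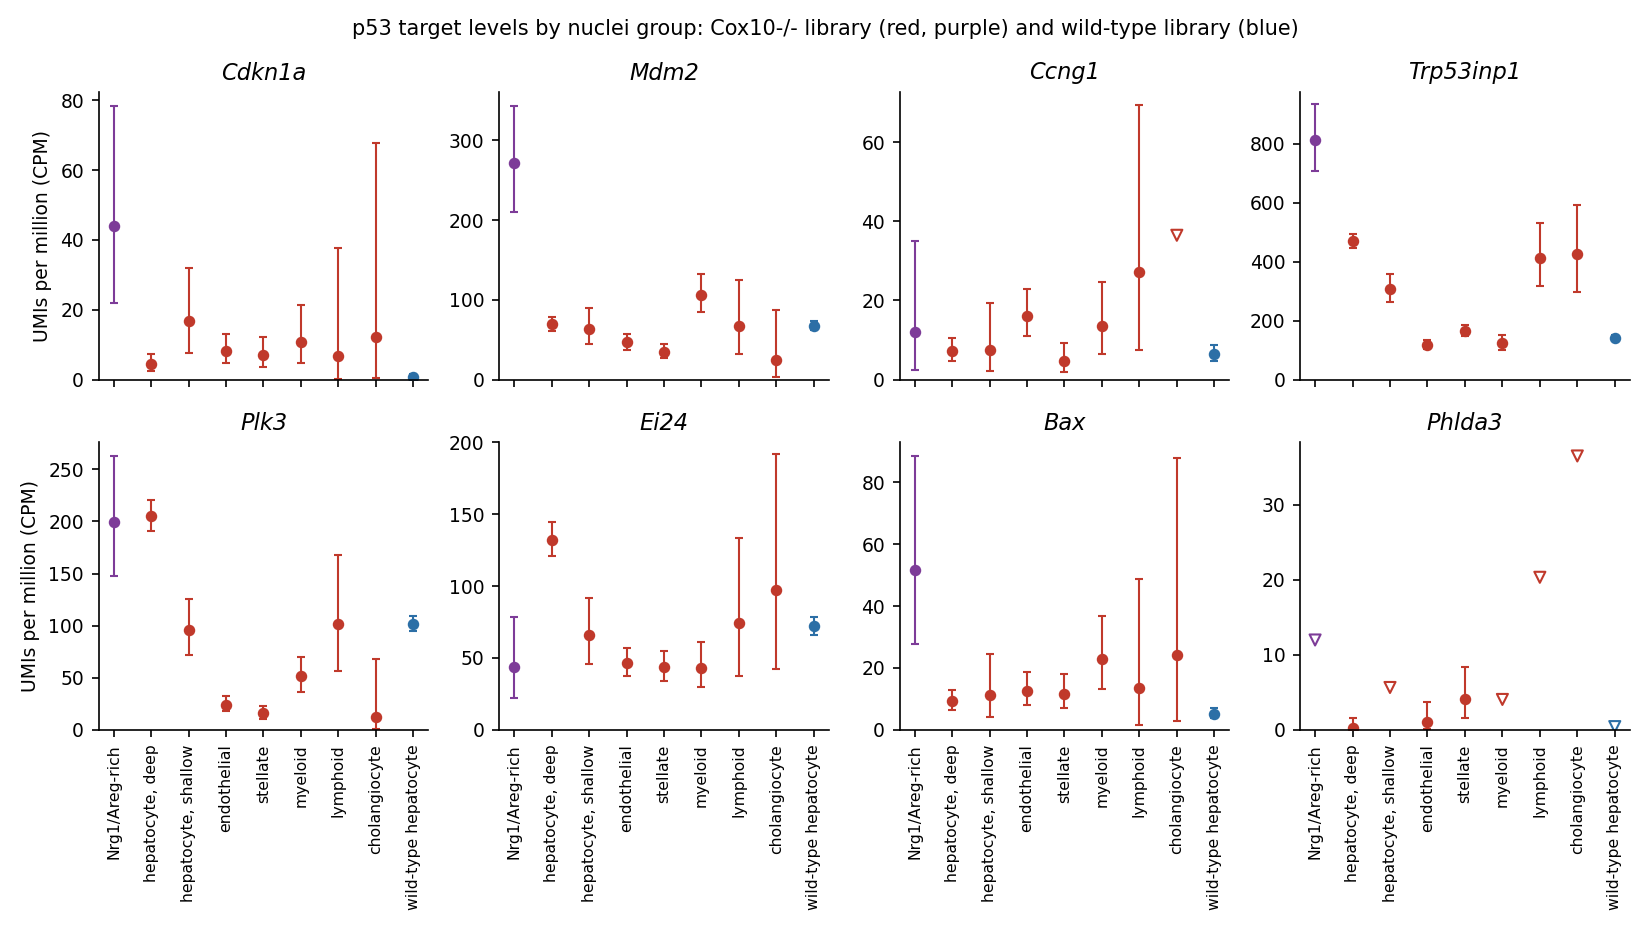
Level of each member (y axis, CPM, linear, own scale per panel; bars are 95% Poisson intervals) in the Nrg1-rich and Areg-rich nuclei (purple) and the marker-defined classes (red) of the Cox10-/- library and in wild-type hepatocyte-like nuclei (blue); open triangles mark the level that 0 UMIs allow. Cdkn1a, Mdm2, Trp53inp1 and Bax peak in the purple group, and Plk3 and Ei24 are high in deep hepatocyte-like nuclei.

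High values of Cdkn1a, Mdm2, Bax and Trp53inp1 were found in a small set of Cox10-/- nuclei rich in Nrg1 and Areg, genes for growth factors of the EGF family. Nuclei with both transcripts and at least 3 UMIs of them together numbered 47, of which 46 lay in an unnamed cluster of 90 Cox10-/- nuclei and 1 was hepatocyte-like; 1 wild-type nucleus met the same rule. Relative to the other 3081 kept Cox10-/- nuclei, Cdkn1a stood at 43.9 CPM (21.9 to 78.5) against 7.99 CPM (6.28 to 10.0), 5.49-fold (2.63 to 10.4). Mdm2, level between the genotypes in hepatocyte-like nuclei, stood at 271 CPM (211 to 344) in the rich nuclei and 61.8 CPM (56.8 to 67.0) in the others, 4.39-fold (3.36 to 5.65). Bax stood at 51.8 CPM (27.6 to 88.6) and 12.0 CPM (9.92 to 14.5), 4.31-fold (2.23 to 7.67), and Trp53inp1 at 813 CPM (706 to 933) and 292 CPM (281 to 303), 2.78-fold (2.40 to 3.21). For Cdkn1a and Bax the intervals of the 22 cholangiocyte-like nuclei, with 1 and 2 UMIs, overlapped those of the rich nuclei. So did the lymphoid-like intervals of Cdkn1a (0.171 to 37.7 CPM) and Bax (1.64 to 48.9 CPM). Shallow hepatocyte-like nuclei overlapped them for Cdkn1a (7.73 to 32.1 CPM), and myeloid-like nuclei for Bax (13.3 to 36.7 CPM). The Trp53inp1 interval also overlapped that of the Cox10-/- hepatocyte-like cluster of 66 nuclei (778 CPM, 691 to 872).

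The other members differed from these. Ei24 was lower in the rich nuclei, at 43.9 CPM against 80.3 CPM in the others, 0.546-fold (0.272 to 0.983), and Ccng1, with 3 UMIs, had a ratio of 1.21 (0.245 to 3.64), which was 1.88 (0.787 to 3.87) for the whole cluster of 90 and 1.65 (0.320 to 5.39) over deep hepatocyte-like nuclei. Phlda3 had 0 UMIs in the rich nuclei, which allows up to 12.0 CPM, and 12 UMIs in the others, too few for a fold. In all, 5 of the 8 members were at least 1.5-fold higher in the rich nuclei than in the other nuclei and 1, Ei24, lower by that fold; of 13032 genes 24% were higher and 39.7% lower. Plk3 was 1.91-fold (1.41 to 2.53) in that comparison but 0.970-fold (0.713 to 1.29) over deep hepatocyte-like nuclei. Over those deep nuclei Cdkn1a was 9.84-fold (4.13 to 22.6), Bax 5.64-fold (2.72 to 11), Mdm2 3.92-fold (2.96 to 5.15), Trp53inp1 1.73-fold (1.49 to 2.01) and Ei24 0.331-fold (0.164 to 0.597), where 29.3% of 9392 genes were at least 1.5-fold higher and 26.4% lower. Over all deposited nuclei 56 nuclei met the rule, and Cdkn1a stood at 3.89-fold (1.90 to 7.18) and Mdm2 at 4.14-fold (3.22 to 5.25), with 24% of genes higher and 41.2% lower. Btg2, an antiproliferative p53 target that also responds to handling, was 1.10-fold (0.870 to 1.37) relative to the other nuclei and 0.581-fold (0.460 to 0.725) relative to deep hepatocyte-like nuclei.

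**Figure D5:**
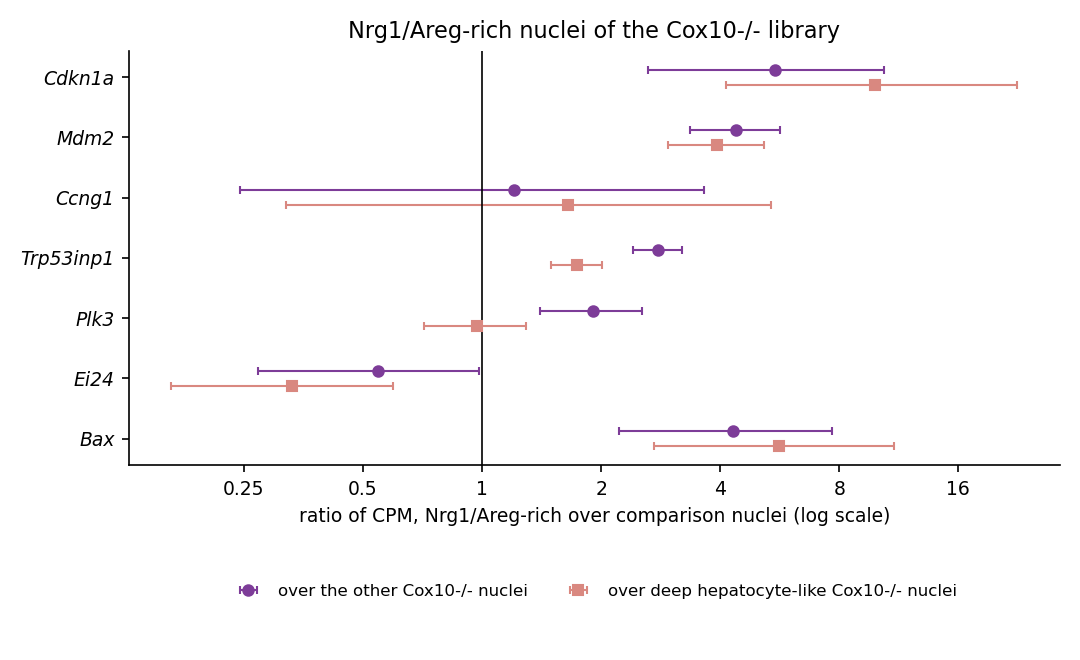
Ratio of CPM (x axis, log scale, bars are 95% counting intervals) in the 47 Nrg1-rich and Areg-rich Cox10-/- nuclei over the other Cox10-/- nuclei (circles) and over deep hepatocyte-like Cox10-/- nuclei (squares) for 7 members. Cdkn1a, Mdm2, Bax and Trp53inp1 lie right of 1 in both comparisons, Ei24 left of 1 in both, and Plk3 near 1 in the second.

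The UMIs in the rich nuclei were spread over many nuclei. Mdm2 was detected in 26 of 47 nuclei with at most 7 UMIs in 1 nucleus, Cdkn1a in 10 nuclei with at most 2, Bax in 10 with at most 3 and Trp53inp1 in 40 with at most 14. Of the 47 nuclei 1 held no member, 7 held 1, 16 held 2, 16 held 3, 3 held 4, 3 held 5 and 1 held 6. These nuclei were deep, with a median of 5562 UMIs, and after thinning to 1000 UMIs Mdm2 was detected in 23.4% (12.3 to 38.0) of them and 3.73% to 9.34% of nuclei in the 4 largest named classes. Cdkn1a was too sparse to be read after thinning. Their hepatocyte markers summed to 15850 CPM, against 36494 CPM in deep hepatocyte-like nuclei. That sum lay below those of all named non-hepatocyte classes (17326.5 CPM in cholangiocyte-like to 30233.5 CPM in lymphoid-like nuclei), and all 13 were detected in each. The 8 cholangiocyte markers summed to 431 CPM in the rich, 165 CPM in deep hepatocyte-like, 537 CPM in stellate-like and 12256 CPM in cholangiocyte-like nuclei. With all deposited nuclei clustered, the cluster highest in Nrg1 and Areg (1076 and 331 CPM) was named cholangiocyte-like. The whole cluster of 90 nuclei had 22 Cdkn1a UMIs (49.4 CPM, 31.0 to 74.8), of which the rich nuclei held 11. Taking it in place of the UMI rule gave 7.10-fold for Cdkn1a, 3.77-fold for Mdm2, 3.44-fold for Bax, 2.74-fold for Trp53inp1 and 0.583-fold for Ei24 over the other Cox10-/- nuclei, where 22.1% of genes were at least 1.5-fold higher and 35.9% lower.

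In the wider p53 list of 37 genes, 31 reached 20 UMIs in hepatocyte-like nuclei, of which 13 were at least 1.5-fold higher and 1 lower, against 18.7% higher and 14.4% lower over all genes. Without the 8 members it was 8 higher and 1 lower of 24, with a median log2 ratio of 0.02 against -0.03 over all genes. The arrest list had 4 of 8 higher, which were the members Cdkn1a and Plk3 together with Plk2 (7.51 against 1.84 CPM, 4.09-fold, 2.08 to 8.51) and Btg2 (527 against 147 CPM, 3.59-fold, 3.34 to 3.87), and Tob1 had a log2 ratio of 0.38. The apoptosis list had 6 of 9 higher, among them Aen, an apoptosis-enhancing nuclease (13.1 against 5.37 CPM, 2.44-fold), and Perp (15.02 against 8.48 CPM, 1.77-fold), whereas the death receptor Fas was lower in Cox10-/- nuclei (14.5 against 24.7 CPM, 0.588-fold, 0.431 to 0.792) and Bid had a log2 ratio of -0.58. In the metabolism list 3 of 7 were higher, Ddit4, an mTOR inhibitor (19.4 against 2.40 CPM, 8.07-fold, 4.74 to 14.5), the secreted stress factor Gdf15 (95.9 against 35.6 CPM, 2.69-fold, 2.29 to 3.17) and Sesn2 (8.96 against 4.38 CPM, 2.05-fold), and Gls2 had a log2 ratio of -0.40. None of the 5 DNA repair targets reached 1.5-fold (median log2 ratio -0.17). Values are Cox10-/- before wild-type throughout.

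Some proliferation genes and most handling genes were also at least 1.5-fold higher in Cox10-/- hepatocyte-like nuclei, a fold that 18.7% of all genes reached. Of the cyclin-dependent kinase inhibitors only Cdkn1a and Cdkn1b reached 20 UMIs, and Cdkn1b, which encodes p27, had a ratio of 0.945 (0.695 to 1.27). Of 16 proliferation genes 8 reached the minimum and 5 were higher, among them Ccnd1, cyclin D1 (35.4 against 3.39 CPM, 10.4-fold, 6.74 to 16.8), Cdk1 (21 against 2 UMIs, 18.0-fold, 4.399 to 158), Ccne1 (log2 ratio 1.35) and Ccne2 (1.28). Without the shallow cluster 6 reached the minimum and 3 were higher (Ccne1, Ccne2 and Ccnd1). Of 16 immediate early and heat shock genes, listed as signs of tissue handling, 14 reached it and 13 were higher, with a median log2 ratio of 1.73. Fosb (24.2 against 0.283 CPM), Klf6 (48.0 against 3.96 CPM), Nr4a1 (103 against 14.3 CPM) and Fos (95.5 against 15.3 CPM) were furthest from 0. The 16 genes summed to 3763 CPM in hepatocyte-like nuclei of the Cox10-/- library, 1501 CPM in those of the wild-type library, and 2887 CPM in the Nrg1-rich and Areg-rich nuclei, below the 3929 CPM of deep hepatocyte-like Cox10-/- nuclei. Mitochondrially encoded UMIs stood at 39911 CPM in Cox10-/- hepatocyte-like nuclei and 72785 CPM in the wild-type ones, the 11 myeloid markers at 81.4 and 6.36 CPM, and the 9 stellate markers at 179 and 26.9 CPM. Of the myeloid markers 8 reached 3 UMIs in Cox10-/- nuclei, with Flt3 at 0, and 6 did in wild-type nuclei, with Itgam and Siglech at 0; of the stellate markers 8 and 5 did, with Pdgfrb and Lhx2 at 0 in wild-type nuclei. The part of handling, other cells' RNA and mitochondrial RNA in the member ratios was not tested.

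Wild-type nuclei of other classes were too few to compare most members at this depth. With all deposited nuclei clustered, 45 endothelial-like, 34 stellate-like and 38 myeloid-like wild-type nuclei were found, and 0 UMIs of a gene there allow up to 33.6, 29.6 and 23.9 CPM, above every Cdkn1a level in those classes of the Cox10-/- library. Trp53inp1 was 3.68-fold (1.25 to 17.9, with 3 wild-type UMIs) in endothelial-like, 1.26-fold (0.729 to 2.39) in stellate-like and 1.98-fold (1.03 to 4.39) in myeloid-like nuclei. Mdm2 was 0.888-fold (0.373 to 2.77), 0.591-fold (0.277 to 1.504) and 2.11-fold (0.946 to 5.82) in the same order. In these deposited nuclei 37% of genes in endothelial-like, 39.2% in stellate-like, 33.5% in myeloid-like and 19.7% in hepatocyte-like nuclei were at least 1.5-fold higher.

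Dendra2, a fluorescent reporter with a row in the count table, gave member ratios whose intervals all held 1 within the Cox10-/- library, Phlda3 with 1 UMI aside. Among deep hepatocyte-like nuclei the 552 with and the 164 without a Dendra2 UMI had ratios of 1.10 (0.971 to 1.26) for Trp53inp1, 0.919 (0.766 to 1.11) for Plk3, 0.903 (0.720 to 1.14) for Ei24 and 0.908 (0.663 to 1.26) for Mdm2, where 9.66% of genes were at least 1.5-fold higher and 6.69% lower. Detection of Dendra2 follows depth, and with nuclei thinned to 1000 UMIs Trp53inp1 was found in 27.3% (21.5 to 33.8) of 216 Dendra2-positive and 35.1% (30.9 to 39.4) of 499 Dendra2-negative deep nuclei, so no direction is read. Dendra2 was also present in wild-type hepatocyte-like nuclei, with 414 CPM in Cox10-/- and 199 CPM in wild-type ones.

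Over the 10 library-by-class groups with at least 50000 UMIs, the summed members followed Btg2 (Pearson r of log2(CPM + 1) 0.92), Trp53inp1, itself a member (0.92), and Maff (0.90) most closely of 8065 genes. Single members had other nearest genes: Trp53inp1 lay closest to Ppl (0.92), Mthfd1l (0.90) and Atf3 (0.89), Plk3 to Gm26917 (0.96), Slc16a7 (0.96) and Mttp (0.95), Ei24 to Akr1c19 (0.94), C9 (0.91) and Dop1b (0.90), and Mdm2 to Zfand5 (0.97), Ddx3y (0.94) and Ube2d3 (0.93). Cdkn1a lay closest to Ccni, Hspbap1 and Hspa9, Ccng1 to Cox17, Mrps31 and Psmd6, Bax to Ppp4r2, Csad and Sap30l, and Phlda3 to Neto1, Vegfc and Cald1, all from 12 to 164 UMIs of the member. These correlations describe 10 groups from 2 libraries that share free RNA and depth.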

How the data were processed

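Single-nucleus RNA was counted by the authors with Cell Ranger 7.0 on mm10, per the submitters' processing notes; the deposited table holds raw UMI counts per gene and nucleus, unnormalized, as its whole numbers show. The sources used here state no filter before deposit; deposited nuclei had at most 20.0% mitochondrially encoded UMIs. A nucleus was kept here from 500 UMIs and 300 genes upward, with a mitochondrially encoded share of up to 10%. Scrublet in scanpy 1.11.5 marked 13 Cox10-/- and 0 wild-type nuclei (0.252% of Cox10-/-), too few to have worked, so doublets largely remain; the 13 were dropped. Nuclei were clustered (2000 variable genes, 30 components, 15 neighbours, Leiden resolution 1, 18 clusters) and named from marker lists, with naming thresholds set after the data were seen; rebuilt names may differ from the study's. UMIs were summed per library and class, divided by the total (CPM), and compared with a prior of 0.5 UMI on the log2 scale and a minimum of 20 UMIs per gene. The 8 members, the gene lists and the markers were chosen with earlier results of these data known. Named genes were the members, up to 4 other genes per list with the largest absolute log2 ratio, 20 UMIs and an interval without 1, and the 3 genes most like each member. Thinned values used draws without replacement with a fixed seed. edgeR 4.0.16 and DESeq2 1.42.0 supplied scaling factors for the alternatives. The fold calculation was tested on simulated data. Gene positions come from GENCODE vM21 and promoter windows from RefSeq (GRCm38.p6). Protein sequences were not used here.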

Additional observations from a re-analysis of the deposited data

Results flagged for a closer look

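Plk3 differed in direction between hepatocyte-like and myeloid-like nuclei when all deposited nuclei were used. Its level was 1.80-fold (1.66 to 1.95) in Cox10-/- over wild-type hepatocyte-like nuclei, with 963 Cox10-/- and 1720 wild-type UMIs. In myeloid-like nuclei it was 0.474-fold (0.248 to 0.995; 41.6 against 87.7 CPM), with 66 Cox10-/- UMIs in 597 nuclei and 11 wild-type UMIs in 38 nuclei. Plk3 was picked out from all members and classes because these intervals lie on opposite sides of 1, although the myeloid-like one ends close to 1. Wild-type hepatocyte-like nuclei had 102 CPM of Plk3. The part of free hepatocyte RNA in the wild-type myeloid-like level was not tested. In endothelial-like (0.537-fold, 0.201 to 2.02) and stellate-like nuclei (0.569-fold, 0.183 to 2.86) the Plk3 intervals held 1. With 1 library per genotype the difference was not tested.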

How the results depend on the processing

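Of the 5 of 8 members at least 1.5-fold higher in hepatocyte-like nuclei, 3 remained when every nucleus was thinned to 1000 UMIs. There 21.2% of 8487 genes were higher by that fold. The sparse Cdkn1a and Bax then fell under the 20-UMI minimum, and the Bax ratio itself was no longer higher. With a 2-fold limit the count was 2, and 9.92% of all genes were higher. The wider list's 13 became 8 with the 2-fold limit. The counts stayed within 1.5 times under the other alternatives (TMM or DESeq2 factors, totals without mitochondrial genes, no UMI minimum, all deposited nuclei, no shallow clusters, no high doublet scores, Leiden resolutions 0.5 and 2, means over nuclei). The members' median log2 ratio, 0.84, ranged from 0.63 (mean over nuclei) to 0.92 (all deposited nuclei without shallow clusters). Thinned, Bax reversed to a log2 ratio of -0.092, from 7 Cox10-/- and 10 wild-type nuclei with a UMI. Of the single-member values 90 stayed within their counting interval, and 5 (of Plk3 and Trp53inp1) moved without changing sign. The all-gene median log2 ratio was -0.13 with averaging over nuclei and -0.12 with thinning, against -0.03, and the members' median stood 0.76 and 0.84 above it. The thinned median leaves out Cdkn1a, Ccng1, Bax and Phlda3, which were under the UMI minimum. In the Nrg1-rich and Areg-rich nuclei 5 members were at least 1.5-fold higher than the other nuclei, 6 by the cluster definition, where Ccng1 was added, 5 against deep hepatocyte-like nuclei, where Ccng1 came in and Plk3 dropped out, and 5 over all deposited nuclei; 24%, 22.1%, 29.3% and 24% of all genes were higher by that fold in these comparisons. Alternatives without shallow clusters on all deposited nuclei, or with TMM factors, and the last 2 of these comparisons were added after the data were seen. No paired analysis was possible because each genotype has 1 library. Depth limits Cdkn1a, Ccng1, Bax and Phlda3 to few UMIs; classes other than hepatocyte-like had at most 10 named wild-type nuclei each.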
